A study of Mus musculus with 12 samples.

Results

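Immune checkpoint ligands are surface or secreted proteins through which a cell dampens the T cells, natural killer (NK) cells and macrophages that meet it. The 10 genes described here are 9 such ligands or related surface molecules and Ido1, an enzyme that breaks down tryptophan. They were taken by symbol from a table of 24493 gene symbols, and all 10 had values. Cd274 (PD-L1) and Pdcd1lg2 (PD-L2) are the ligands of the T cell receptor Pdcd1 (PD-1). Tnfrsf14 (HVEM) engages Btla and Cd160, and Lgals9 (galectin-9) binds Havcr2 (TIM-3). Nectin2 and Pvr are nectin-family adhesion proteins that bind inhibitory Tigit and activating Cd226. Cd47 signals through Sirpa on macrophages against engulfment, and Cd276 (B7-H3) is a B7-family protein. Nt5e (CD73) makes extracellular adenosine from AMP, and Ido1 turns tryptophan into the kynurenine pathway. Cd274, Pdcd1lg2, Lgals9 and Ido1 are known targets of interferon gamma, which acts through a receptor of the chains Ifngr1 and Ifngr2 and induces the transcription factor Irf1.

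RNA was sequenced from mouse pancreatic tumour cells named 6649c2, implanted under the skin of C57BL/6 mice and then sorted from the tumours. There were 12 libraries, 3 for each genotype label: EgfrKO, Klf5KO, Smad4KO and WT, where WT carries no labelled knockout. Egfr encodes a growth factor receptor, Klf5 an epithelial transcription factor and Smad4 a transcriptional co-factor of the TGF-beta and BMP pathways. Whether each knockout line is 1 clone or a pool, how it was made, which gate was used for sorting and whether replicates came from separate tumours are not stated in the labels. Effects of a knockout and differences that a cell line acquired otherwise cannot be told apart, and p-values measure the spread between these libraries, which may be technical.

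Values are TPM, a transcript's share of a library corrected for its length, which leaves sequencing depth unknown. Egfr was 3.78 to 5.16 TPM in EgfrKO and 12.3 to 14.0 TPM in WT, and Smad4 was 28.9 to 33.4 TPM in Smad4KO and 70.9 to 79.8 TPM in WT. Klf5 was 87.8 to 100.5 TPM in Klf5KO and 97.1 to 130.3 TPM in WT, ranges that overlapped, so these values do not check that label, and Klf5KO below means the libraries labelled so. The keratins Krt8 and Krt18 were abundant in every genotype, with the lowest means in Klf5KO (1909 and 1913 TPM). Of the other epithelial markers Epcam and Krt7, named after their values were seen, were low in some genotypes: Epcam averaged 1.30 TPM in EgfrKO, 0.539 in Klf5KO and 39.5 in Smad4KO, against 13.5 TPM in WT, and Krt7 averaged 5.07 TPM in Klf5KO, against 61.6 TPM in WT. Krt7 was higher in EgfrKO and Smad4KO (159 and 133 TPM). Of the 6 epithelial markers 4 were higher than WT and 1 lower in EgfrKO, by the test described below. The counts were 1 and 4 in Klf5KO, and 6 and 0 in Smad4KO. Host cell markers were also present. The 9 macrophage markers summed to 828 to 893 TPM in EgfrKO, 573 to 919 TPM in Klf5KO, 114 to 533 TPM in Smad4KO and 431 to 778 TPM in WT. The lowest of these was Smad4KO replicate 2, which stands apart from the other Smad4KO libraries (533 and 524 TPM), with C1qa and C1qb, complement genes of macrophages, as the most abundant of the list.

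Promoter sequences were read for 8 of the 10 genes from RefSeq's table of build GRCm38.p6, as the 250 bases before the annotated start. No sequence was matched for Ido1 and Pvr, so their promoters were not searched. A core of the element bound by interferon regulatory factors, GAAA and GAAA separated by any 2 bases, on either strand, occurred in 2 of the 8 genes, Lgals9 and Tnfrsf14, and in 2.98% of all 32851 such windows. Both matches are shown with 10 bases on each side because these genes were higher in every knockout label, and capitals mark the matched letters, which hold the core on the opposite strand. The Lgals9 match lies 55 to 46 bases before the start (chr11:78984960-78984989 with its flanks, minus strand) and the Tnfrsf14 match 64 to 55 bases before it (chr4:154928122-154928151, minus strand). The Tnfrsf14 match lies inside an exon of another annotated transcript of the gene. A match is a description of letters and not a tested binding site.
Lgals9: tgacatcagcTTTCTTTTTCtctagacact
Tnfrsf14: ctattttttcTTTCATTTTCacttttcctt

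Ido1, Tnfrsf14, Cd274, Lgals9 and Pdcd1lg2 were higher in each knockout label than in WT, Pvr was lower, and the other 4 genes differed by genotype or by small amounts. Tests used limma on log2(TPM + 1) over the 13662 genes that reached 1 TPM in at least 3 libraries, with an adjusted p under 0.05 as the threshold for calling a gene. All 10 genes passed that filter, Pdcd1lg2 only through the knockouts, since it stayed below 1 TPM in WT. In EgfrKO 6 of the 10 were called higher and 2 lower against WT, where 31.3% and 12% of all genes tested were. The counts were 7 higher and 2 lower in Klf5KO, against 55.2% and 11.1% of all genes, and 7 higher and 1 lower in Smad4KO, against 32.2% and 17.4%. The median log2 fold change of the 10 was 0.62, 0.67 and 0.71 in EgfrKO, Klf5KO and Smad4KO, beside 0.14, 0.31 and 0.10 for all genes tested.

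These shifts of all genes went to 0.01 or less in size after median-of-ratios scaling, which sets the libraries to a common median gene. After scaling 5 of the 10 were called higher and 2 lower in EgfrKO, where 18.2% and 22.1% of all genes were. In Klf5KO 7 were higher and 3 lower, beside 24.9% and 27.3% of all genes, and in Smad4KO 7 and 3, beside 24.8% and 25.2%. The 3 comparisons share the WT libraries, so a low or high WT value enters each of them. In sorted bulk cells a lower share of cells that use a gene and less RNA per cell cannot be told apart.

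**Figure D1:**
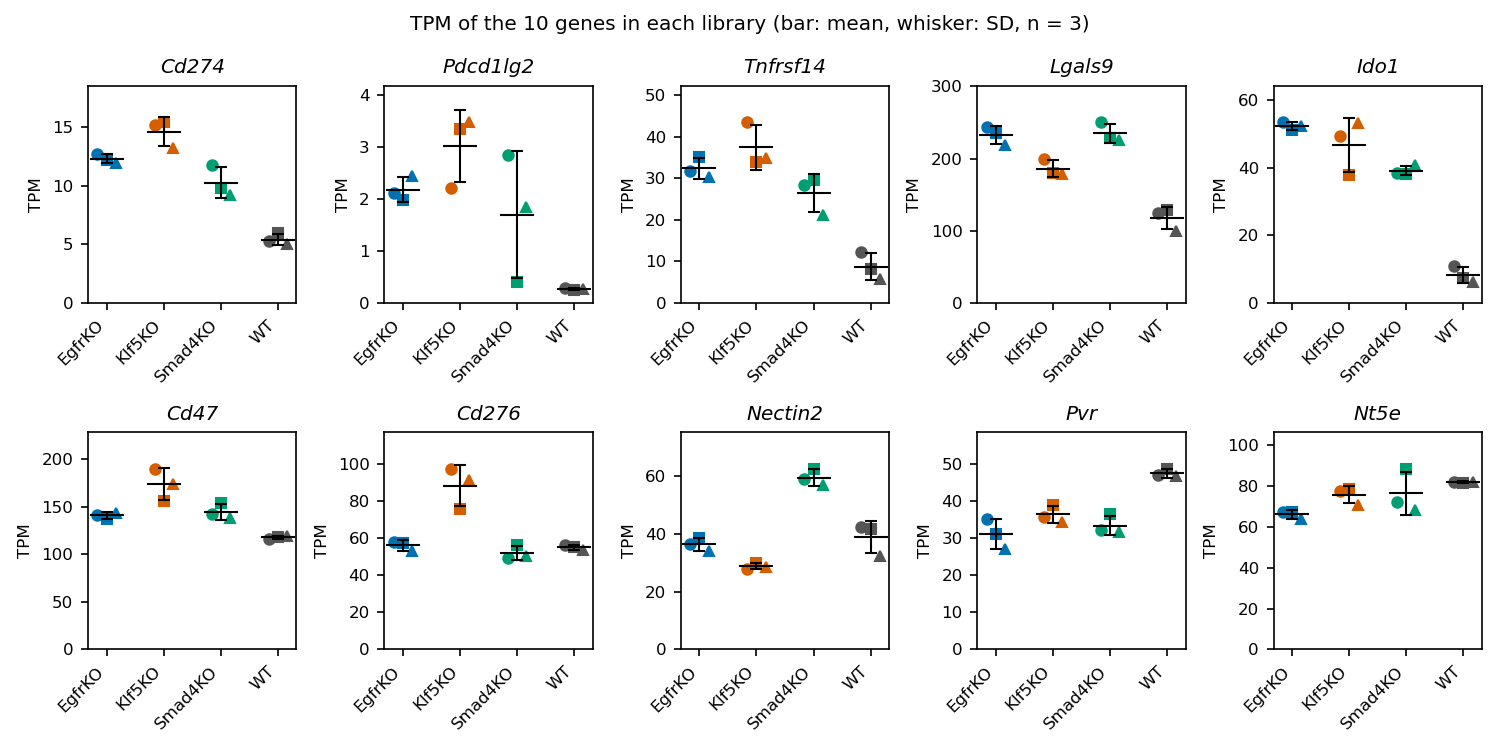
Each panel plots 1 gene in TPM (vertical axis from 0) for the 3 libraries of EgfrKO, Klf5KO, Smad4KO and WT, with circles, squares and triangles for replicates 1, 2 and 3, a bar at the mean and whiskers of 1 SD (n = 3). Ido1 sits at 6.22 to 10.8 TPM in WT and above 37 TPM in every knockout library, with 37.7 TPM the lowest, and Pdcd1lg2 in Smad4KO replicate 2 (0.408 TPM) lies close to WT.

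Among the ligands of Pdcd1, Cd274 (chromosome 19, 29362107 to 29388095, plus strand) had 12.7, 12.2 and 11.95 TPM in EgfrKO. It had 15.2, 15.4 and 13.2 TPM in Klf5KO and 11.7, 9.77 and 9.24 TPM in Smad4KO, against 5.28, 5.93 and 5.01 TPM in WT. Every knockout library was above every WT library, and the 3 knockout groups did not overlap each other either, with Klf5KO highest and Smad4KO lowest. After scaling EgfrKO (12.05 to 12.5 TPM) lay inside the range of Klf5KO (11.6 to 13.6), which also overlapped Smad4KO (9.73 to 11.9). Means were 12.3 ± 0.38 TPM in EgfrKO, 14.6 ± 1.23 in Klf5KO and 10.3 ± 1.32 in Smad4KO, against 5.41 ± 0.47 in WT (SD, n = 3 each). Log2 fold changes against WT were 1.05, 1.28 and 0.81 for EgfrKO, Klf5KO and Smad4KO, each with an SE of 0.10, and adjusted p was 1e-05, 1.2e-06 and 3.9e-05. After scaling the fold changes were 0.93, 0.96 and 0.71, still past the threshold.

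Pdcd1lg2, the other Pdcd1 ligand, lies 22823 bp downstream of Cd274 (chromosome 19, 29410919 to 29472927, plus strand) and was the least abundant of the 10 genes. It had 2.11, 1.97 and 2.44 TPM in EgfrKO, 2.21, 3.33 and 3.47 TPM in Klf5KO and 2.85, 0.408 and 1.84 TPM in Smad4KO, against 0.281, 0.254 and 0.276 TPM in WT. The groups did not overlap with WT, although Smad4KO replicate 2 came close. Log2 fold changes on the log2(TPM + 1) scale were 1.32 ± 0.29 in EgfrKO (SE, adjusted p = 0.0036), 1.64 ± 0.29 in Klf5KO (0.00039) and 0.97 ± 0.29 in Smad4KO (0.016), which understate changes at such low levels, where the means were 8.05, 11.1 and 6.28 times WT. The Smad4KO call was lost without Smad4KO replicate 1 (log2 fold change 0.65, adjusted p = 0.065) or replicate 3 (0.053), with only these 2 groups in the fit (0.052), and with the list of 8 fibroblast markers as a covariate (0.68, 0.11). With no filter on low values, so that Pdcd1lg2 did not need the knockouts to be tested, adjusted p was 0.0078 in EgfrKO, 0.0010 in Klf5KO and 0.028 in Smad4KO.

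Smad4KO replicate 2 separated Pdcd1lg2 from the other 9 genes. In that library Pdcd1lg2 was 0.175 times the mean of the other 2 Smad4KO libraries, and the summed macrophage markers were 0.215 times theirs. The other 9 genes were between 0.932 times (Cd274) and 1.26 times (Nt5e) that mean, with Ido1 at 0.967 times, Lgals9 at 0.963 times and Tnfrsf14 at 1.20 times. Without this library the log2 fold change of Pdcd1lg2 in Smad4KO was 1.38, the highest of the leave-one-out values. In WT replicate 2 the macrophage sum was 778 TPM, the highest of WT, and Pdcd1lg2 was 0.254 TPM, the lowest of WT.

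**Figure D2:**
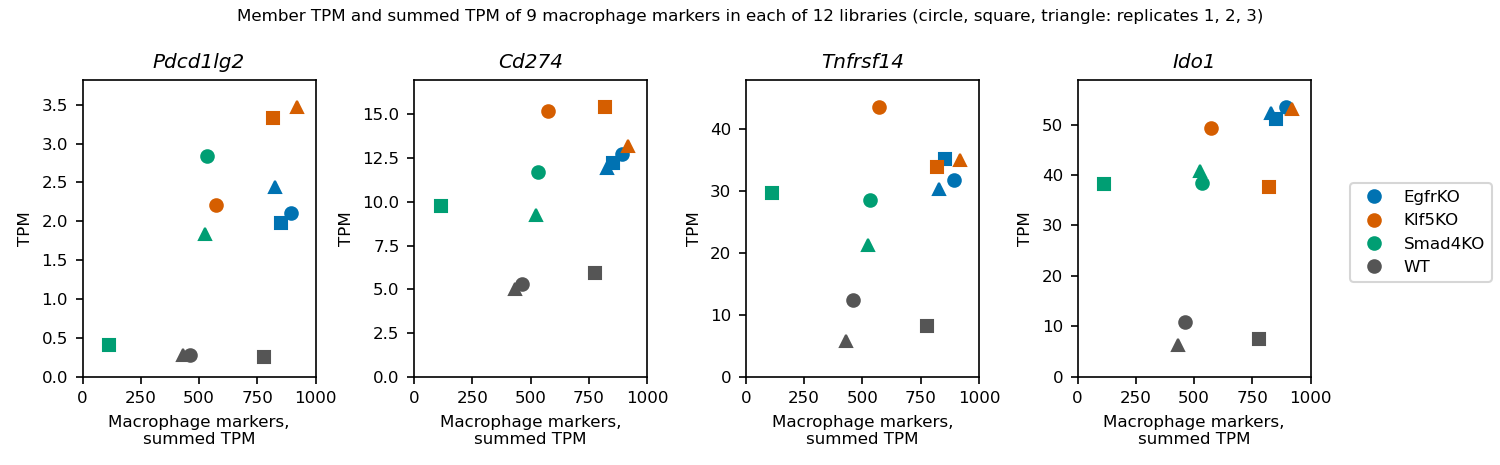
Each panel plots the TPM of 1 gene (vertical axis) against the summed TPM of the 9 macrophage markers (horizontal axis) in the 12 libraries, with colours for genotype and circles, squares and triangles for replicates 1, 2 and 3. Smad4KO replicate 2, at a macrophage sum of 114 TPM, has 0.408 TPM of Pdcd1lg2 but 9.77 TPM of Cd274, 29.7 TPM of Tnfrsf14 and 38.3 TPM of Ido1, within or close to the range of the other Smad4KO libraries.

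The summed host cell markers also differed between genotypes. The summed macrophage markers of EgfrKO (828 to 893 TPM) were above those of WT (431 to 778 TPM), and the 7 general leukocyte markers, led by Fcer1g and Tyrobp, summed to 302 to 314 TPM in EgfrKO, 276 to 436 in Klf5KO and 74.2 to 180.1 in Smad4KO, against 180 to 267 in WT. Taken singly, 0 of the 9 macrophage markers were called in EgfrKO against WT. Of the 7 leukocyte markers 3 were called higher there and Cd53 lower (log2 fold change -0.44, adjusted p = 0.0061), and after scaling 1 higher and 1 lower. The 6 dendritic cell markers, led by Cd209a and Itgax, summed to 15.5 to 16.5 TPM in EgfrKO, 12.7 to 20.3 in Klf5KO and 5.90 to 7.66 in Smad4KO, against 5.17 to 7.15 in WT. Of those 6, Flt3, Xcr1 and Clec9a stayed under 1 TPM in every library. With the macrophage list as a covariate the log2 fold changes of Pdcd1lg2 were 0.97, 1.33 and 1.36 in EgfrKO, Klf5KO and Smad4KO, and those of Cd274 were 1.02, 1.25 and 0.85, all with adjusted p under 0.05. With the leukocyte list those of Pdcd1lg2 were 0.83 (adjusted p = 0.013), 0.93 (0.0082) and 1.39 (0.00034), so the EgfrKO and Klf5KO values shrank by more than with the macrophage list. The leukocyte sums of EgfrKO and Klf5KO do not overlap those of WT, nor do the macrophage sums of EgfrKO. In those comparisons the covariate and the label cannot be told apart, for any gene fitted with it. How far host cells enter the level of Pdcd1lg2 was not tested beyond these values.

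Ido1 (chromosome 8, 24584133 to 24596952, minus strand) had the largest fold change of the 10 genes on the log2(TPM + 1) scale in each comparison with WT, while by the ratio of mean TPM Pdcd1lg2 was ahead of it. With a pseudocount of 0.1 Pdcd1lg2 was also ahead in Klf5KO (3.04, against 2.53 for Ido1). It had 53.5, 51.2 and 52.2 TPM in EgfrKO, 49.3, 37.7 and 53.1 TPM in Klf5KO and 38.4, 38.3 and 40.8 TPM in Smad4KO, against 10.8, 7.39 and 6.22 TPM in WT. No knockout library came near the WT range, and EgfrKO lay wholly above Smad4KO. Means were 52.3 ± 1.15, 46.7 ± 8.03 and 39.2 ± 1.40 TPM in EgfrKO, Klf5KO and Smad4KO, against 8.13 ± 2.37 TPM in WT. Its mean was therefore 6.44, 5.75 and 4.82 times WT. Adjusted p was 8.3e-07, 4.5e-07 and 6.8e-07 for log2 fold changes of 2.58, 2.40 and 2.17 (SE 0.16 each).

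Tnfrsf14 (chromosome 4, 154918487 to 154928620, minus strand) had 31.8, 35.2 and 30.4 TPM in EgfrKO and 43.6, 33.9 and 34.9 TPM in Klf5KO. It had 28.5, 29.7 and 21.3 TPM in Smad4KO, against 12.3, 8.17 and 5.74 TPM in WT. The WT libraries spread widely, with replicate 1 the highest and replicate 3 the lowest, and none reached a knockout library. Log2 fold changes were 1.83, 2.03 and 1.54 (SE 0.21 each) in EgfrKO, Klf5KO and Smad4KO, with adjusted p of 4.5e-05, 9e-06 and 9.1e-05. With the fibroblast covariate the Klf5KO value was 0.74 and was not called (adjusted p = 0.094). The same WT libraries were the highest and lowest for Ido1.

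Lgals9 (chromosome 11, 78962979 to 78984924, minus strand) was the most abundant of the 10 genes in the EgfrKO, Klf5KO and Smad4KO libraries. It had 243, 235 and 219 TPM in EgfrKO, 199, 180.5 and 179 TPM in Klf5KO and 250.4, 229 and 225 TPM in Smad4KO, against 124, 128 and 99.7 TPM in WT. All knockout libraries were above WT, and Klf5KO was the lowest of the 3. Log2 fold changes were 0.99, 0.67 and 1.0 in EgfrKO, Klf5KO and Smad4KO (SE 0.09 each), with adjusted p of 8.1e-06, 5.4e-05 and 3e-06. Scaling took the Klf5KO value to 0.31 (adjusted p = 0.0047) and left 0.84 in EgfrKO and 0.89 in Smad4KO. With the fibroblast covariate the Klf5KO call of Lgals9 was lost (0.28, adjusted p = 0.30).

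**Figure D3:**
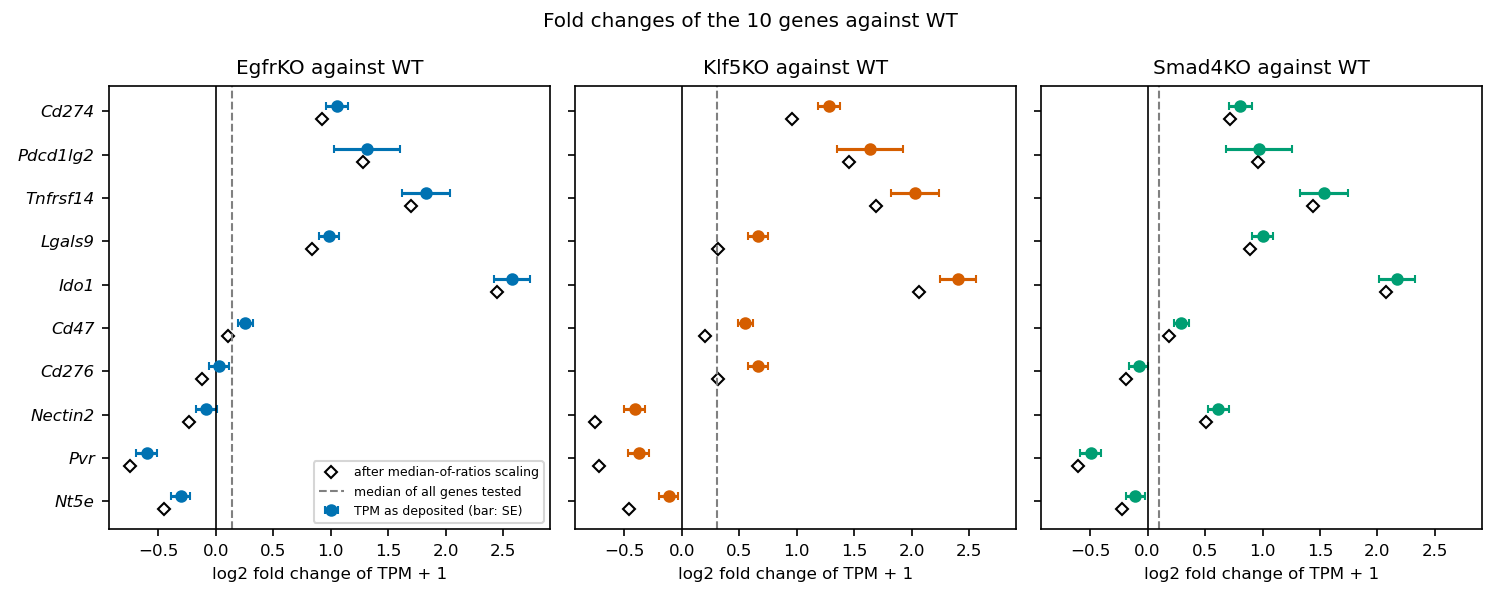
Log2 fold changes of TPM + 1 against WT (horizontal axis) for the 10 genes, with filled points and SE bars for TPM as deposited, open diamonds for values after median-of-ratios scaling, and a dashed line at the median of all genes tested (0.14 in EgfrKO, 0.31 in Klf5KO, 0.10 in Smad4KO). Ido1 and Tnfrsf14 lie farthest right in each panel, and Pvr lies left of 0 in each.

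Nectin2 and Pvr, the nectin-family pair, differed by genotype. Nectin2 (chromosome 7, 19716644 to 19749573, minus strand) had 36.5, 38.4 and 34.1 TPM in EgfrKO, 27.8, 30.0 and 28.5 TPM in Klf5KO and 58.8, 62.5 and 57.0 TPM in Smad4KO, against 42.3, 41.5 and 32.4 TPM in WT. It was higher in Smad4KO than in any other library and lower in Klf5KO, while EgfrKO overlapped WT. Log2 fold changes were 0.61 ± 0.09 in Smad4KO (SE, adjusted p = 0.00019), -0.41 ± 0.09 in Klf5KO (0.0022) and -0.08 ± 0.09 in EgfrKO (0.50). Without WT replicate 3 the EgfrKO value was -0.20 (adjusted p = 0.040), and after scaling the Klf5KO value was -0.75 (3.2e-05).

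Pvr (chromosome 7, 19903578 to 19921143, minus strand) had 35.1, 31.1 and 27.1 TPM in EgfrKO, 35.8, 39.0 and 34.5 TPM in Klf5KO and 32.3, 36.5 and 31.6 TPM in Smad4KO, against 47.0, 48.8 and 46.7 TPM in WT. Every knockout library was below every WT library. It fell by 0.60 (adjusted p = 0.00028), 0.37 (0.0029) and 0.50 (0.00068) on the log2 scale in EgfrKO, Klf5KO and Smad4KO (SE 0.09 each). The Klf5KO value of Pvr was -0.72 after scaling, and its call was lost with the leukocyte list (-0.30, adjusted p = 0.051) or the fibroblast list (-0.41, 0.24) as a covariate. The ratio of Nectin2 to Pvr within a library, which no scaling of libraries changes, was 1.18 ± 0.12 in EgfrKO, 0.791 ± 0.031 in Klf5KO and 1.78 ± 0.058 in Smad4KO, against 0.815 ± 0.11 in WT (SD, n = 3 each). Smad4KO (1.72 to 1.82) and EgfrKO (1.04 to 1.25) lay above WT (0.693 to 0.901), and Klf5KO (0.769 to 0.826) lay inside the WT range.

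Cd47 (chromosome 16, 49851328 to 49912503, plus strand) was abundant and shifted by little. It was 137 to 144 TPM in EgfrKO, 157 to 190.2 TPM in Klf5KO and 138 to 154 TPM in Smad4KO, against 116 to 119 TPM in WT, with no overlap. The log2 fold changes of 0.26, 0.55 and 0.29 (SE 0.07 each) had adjusted p of 0.0083, 2.4e-05 and 0.0029. After scaling they were 0.11 (adjusted p = 0.16), 0.20 (0.013) and 0.18 (0.021), so the EgfrKO call rested on TPM as deposited. With the fibroblast covariate the Klf5KO call of Cd47 was lost (0.30, adjusted p = 0.17).

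Cd276 (chromosome 9, 58524300 to 58555033, minus strand) was raised in Klf5KO, at 76.2 to 97.7 TPM, against 53.5 to 56.3 TPM in WT. It was 53.0 to 58.3 TPM in EgfrKO and 49.5 to 56.4 TPM in Smad4KO, both overlapping WT. The Klf5KO log2 fold change was 0.67 ± 0.08 (SE, adjusted p = 4e-05), and 0.32 after scaling (0.0025). In EgfrKO and Smad4KO it was 0.03 (0.81) and -0.08 (0.47), and scaling turned the EgfrKO value to -0.12 (0.19) and took the Smad4KO value to -0.19 (0.038). The 8 fibroblast markers, led by the collagens Col1a1 and Col1a2, summed to 291 to 612 TPM in Klf5KO and 54.0 to 136 TPM in WT, and with that list as a covariate the Klf5KO value was 0.25 (adjusted p = 0.29). Because the sums of the fibroblast list do not overlap between Klf5KO and WT, that covariate and the label cannot be told apart.

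Nt5e (chromosome 9, 88327609 to 88372089, plus strand) was 63.8 to 67.4 TPM in EgfrKO, 70.9 to 78.6 TPM in Klf5KO and 68.2 to 88.5 TPM in Smad4KO, against 81.3 to 82.2 TPM in WT. It fell in EgfrKO by 0.30 on the log2 scale (adjusted p = 0.011), a call lost with the leukocyte list as a covariate (-0.17, 0.058). Klf5KO and Smad4KO had log2 fold changes of -0.11 (adjusted p = 0.25) and -0.11 (0.30), and after scaling -0.46 (0.00021) and -0.22 (0.021). Smad4KO replicate 2 was the highest of all libraries at 88.5 TPM, and without it the Smad4KO value was -0.22 (adjusted p = 0.011).

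The knockouts were then compared with each other. Between Klf5KO and Smad4KO 5 of the 10 genes were called, where 63.8% of all genes were. Nectin2 was lower in Klf5KO by the largest amount, with a log2 fold change of -1.02 (adjusted p = 2e-06), and Lgals9 was lower too (-0.33, 0.0059). Cd276 (0.74, 1.3e-05), Cd274 (0.47, 0.0012) and Cd47 (0.26, 0.0046) were higher in Klf5KO. After scaling Cd274 was 0.25 higher (adjusted p = 0.029) and Cd47 was not called (0.02, 0.83). With the leukocyte list as a covariate Cd274 was not called (adjusted p = 0.093). The values of Pdcd1lg2 (0.67, adjusted p = 0.060) and Tnfrsf14 (0.49, 0.059) missed the threshold. Pdcd1lg2 passed it without Klf5KO replicate 1 (0.046) or Smad4KO replicate 1 (0.0073), and Tnfrsf14 without WT replicate 1 (0.015) or WT replicate 3 (0.020). Nt5e, at -0.004 (adjusted p = 0.97), was called lower in Klf5KO after scaling (-0.24, 0.0099). With the leukocyte list as a covariate Nt5e was called higher (0.30, 0.024).

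EgfrKO and Klf5KO differed in 5 of the 10 genes, where 55.2% of all genes were called. Cd276 (-0.64, adjusted p = 7.9e-05), Cd47 (-0.29, 0.0024) and Pvr (-0.23, 0.047) were lower in EgfrKO, and Lgals9 (0.32, 0.0093) and Nectin2 (0.33, 0.010) were higher. The Pvr groups overlapped, at 27.1 to 35.1 TPM in EgfrKO and 34.5 to 39.0 TPM in Klf5KO. That call was lost without any of 9 libraries, with adjusted p from 0.0525 to 0.195, and after scaling (log2 fold change -0.03, 0.76), as was that of Cd47 (-0.09, 0.21). Cd274 (-0.23, adjusted p = 0.069) and Nt5e (-0.19, 0.064) passed the threshold without Klf5KO replicate 3 (0.039 and 0.047). Cd274 also passed it without Smad4KO replicate 1 (0.047), and Nt5e without Smad4KO replicate 2 (0.0084) or replicate 3 (0.041).

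Between EgfrKO and Smad4KO 1 of the 10 genes was called, where 33.2% of all genes were. That gene was Nectin2, lower in EgfrKO by 0.70 on the log2 scale (adjusted p = 0.00017). Ido1 was 0.41 ± 0.16 higher in EgfrKO (SE, adjusted p = 0.068) with groups that did not overlap, and it passed the threshold with only these 2 groups in the fit (0.0011) and without WT replicate 1 (0.016), WT replicate 3 (0.039) or Klf5KO replicate 2 (0.044). Cd274 was 0.25 ± 0.10 higher (adjusted p = 0.075), and 0.34 higher without Smad4KO replicate 1 (0.026). Nt5e, at -0.20 (0.087), passed without Smad4KO replicate 3 (0.028), after scaling (-0.23, 0.021) and after quantile normalization (-0.21, 0.045). With the leukocyte list as a covariate it was 0.05 (0.74). Lgals9, with 233 TPM in EgfrKO and 235 TPM in Smad4KO on average, had a log2 difference of -0.015 ± 0.089 (SE).

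Interferon gamma signalling genes were examined beside the ligands, as a list of 11. In EgfrKO 6 rose and 3 fell, in Klf5KO 8 rose and 1 fell, and in Smad4KO 6 rose and 3 fell, with medians of 0.32, 0.62 and 0.70. Of all genes tested 31.3%, 55.2% and 32.2% were called higher in these comparisons. After scaling 6 rose and 5 fell in EgfrKO, 7 and 3 in Klf5KO, and 6 and 4 in Smad4KO, with medians of 0.17, 0.27 and 0.59. Irf1, a transcription factor that interferon gamma induces, was 164 ± 11.7, 162 ± 8.65 and 151 ± 9.21 TPM in EgfrKO, Klf5KO and Smad4KO, against 71.6 ± 6.56 TPM in WT. Socs1, a feedback inhibitor of Jak kinases, was 3.76, 2.79 and 3.14 times WT. Its adjusted p was at most 1.4e-05, and at most 0.00018 after scaling.

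The receptor chain Ifngr1 was 1.33 times WT in EgfrKO and 1.79 times in Smad4KO, where it rose by 0.83 on the log2 scale (adjusted p = 9.4e-07). Its Klf5KO value of 0.13 (adjusted p = 0.086) turned to -0.22 after scaling (0.011). Ifngr2, the other chain, rose in EgfrKO, Klf5KO and Smad4KO, by 0.32, 0.71 and 0.70. Socs3, a feedback inhibitor that acts on the Il6 receptor family, fell by 0.13, 0.61 and 0.32 in EgfrKO, Klf5KO and Smad4KO, with adjusted p of 0.032, 6.6e-07 and 8.1e-05.

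**Figure D4:**
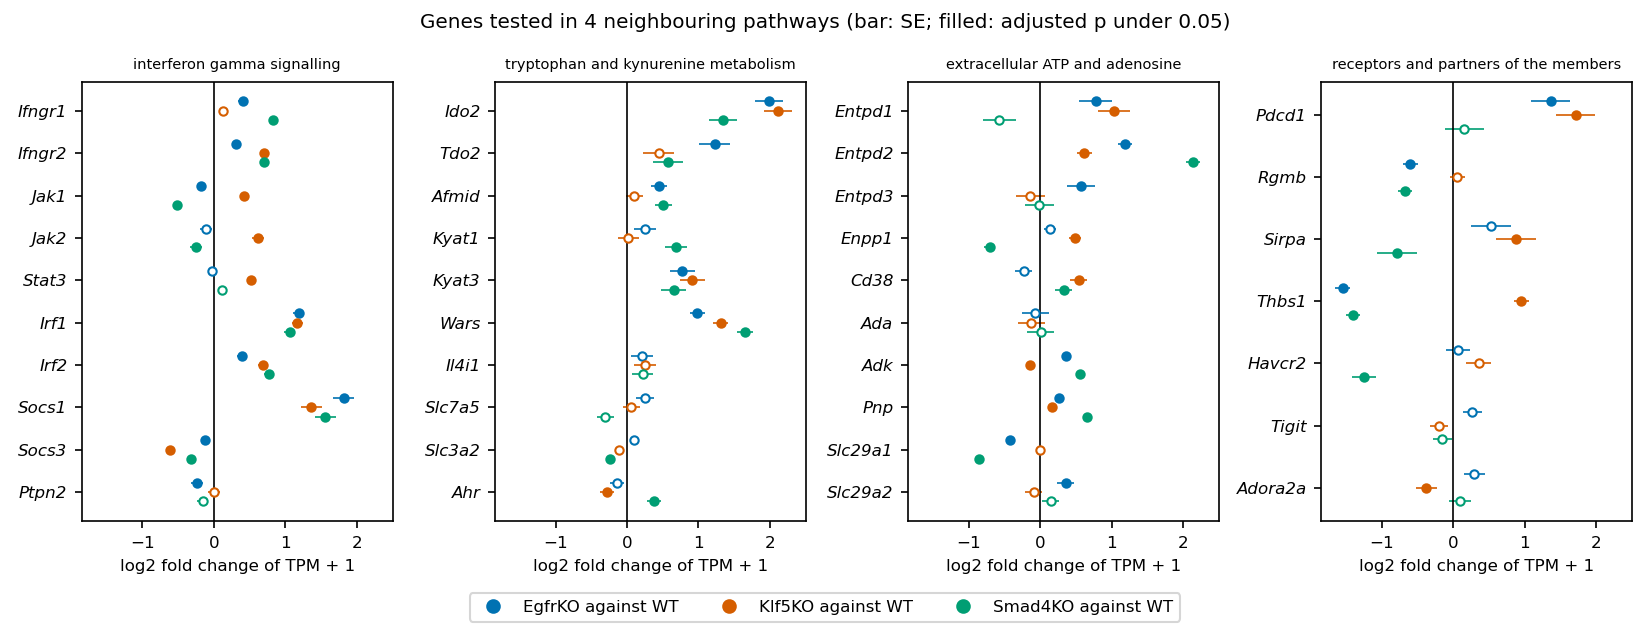
Log2 fold changes of TPM + 1 against WT (horizontal axis) for tested genes of 4 lists, with blue, orange and green for EgfrKO, Klf5KO and Smad4KO, bars of 1 SE, and filled points for an adjusted p under 0.05. Irf1, Socs1, Ido2 and Wars are filled and right of 0 in all 3 colours, and Thbs1 is left of 0 in EgfrKO and Smad4KO and right of 0 in Klf5KO.

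Around Ido1, 10 of 15 tryptophan and kynurenine genes were tested. In EgfrKO 5 rose and 0 fell, in Klf5KO 3 rose and 1 fell, and in Smad4KO 7 rose and 1 fell, with medians of 0.35, 0.18 and 0.54. Among all genes 31.3%, 55.2% and 32.2% were called higher, with medians of 0.14, 0.31 and 0.10. After scaling the list had 5 and 1, 3 and 2, and 7 and 2, with medians of 0.22, -0.10 and 0.48. The shares of all genes called higher were then 18.2%, 24.9% and 24.8%. Ido2, the paralog of Ido1, averaged 5.44 ± 0.65 TPM in EgfrKO, 6.19 ± 2.07 in Klf5KO and 3.13 ± 0.53 in Smad4KO, against 0.614 ± 0.017 TPM in WT. Wars, which charges transfer RNA with tryptophan and is induced by interferon gamma, was 1.98, 2.51 and 3.17 times WT, with adjusted p of 3.1e-05, 1.8e-06 and 2.7e-07. Tdo2, another enzyme that opens the tryptophan ring, rose in EgfrKO to 1.96 ± 0.13 TPM, against 0.270 ± 0.16 TPM in WT. In Smad4KO it averaged 0.901 ± 0.34 TPM, with an adjusted p of 0.044. Tdo2 stayed below 1 TPM in WT and passed the filter only through the knockouts. Its Smad4KO value without the filter is not given, so that call near the threshold is uncertain. Kyat3, a kynurenine aminotransferase, rose by 0.775, 0.92 and 0.66 in EgfrKO, Klf5KO and Smad4KO (adjusted p = 0.004, 0.00065 and 0.0082). Slc3a2, an amino acid transporter subunit, fell in Smad4KO by 0.23 (adjusted p = 0.0012). The downstream genes Kynu, Kmo, Haao, Qprt and Aadat did not reach 1 TPM in 3 libraries and were not tested.

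Around Nt5e, 10 of 11 genes of extracellular ATP and adenosine were tested. In EgfrKO 6 rose and 1 fell, in Klf5KO 5 rose and 1 fell, and in Smad4KO 4 rose and 2 fell, and after scaling 3 and 2, 2 and 4, and 3 and 3. Among all genes 31.3%, 55.2% and 32.2% were called higher, and after scaling 18.2%, 24.9% and 24.8%. Entpd2, which removes phosphate groups from extracellular ATP, averaged 20.3 ± 1.58 TPM in EgfrKO, 13.4 ± 1.97 in Klf5KO and 40.1 ± 1.15 in Smad4KO, against 8.33 ± 0.57 TPM in WT. Its Smad4KO log2 fold change of 2.14 had an adjusted p of 2.6e-08. Slc29a1, a nucleoside transporter, fell in EgfrKO by 0.42 and in Smad4KO by 0.86 (adjusted p = 4.7e-05 and 9.2e-08), and Adk, adenosine kinase, rose there by 0.36 and 0.56 (0.00019 and 2.8e-06). In Klf5KO Enpp1, an ectoenzyme that cleaves ATP, rose by 0.48 (adjusted p = 0.00032), or 0.14 after scaling (0.11). Entpd1 (CD39), which leukocytes and endothelial cells carry, rose there to 6.16 ± 0.87 TPM, against 2.56 ± 0.94 TPM in WT, and that call was lost with the leukocyte list as a covariate (log2 fold change 0.45, adjusted p = 0.056). In EgfrKO Entpd1 averaged 4.99 ± 0.54 TPM and was also called higher (log2 fold change 0.78, adjusted p = 0.017). The 5 endothelial markers, led by Cdh5 and Pecam1, summed to 6.25 to 8.46 TPM in EgfrKO, 11.7 to 14.6 in Klf5KO and 2.12 to 3.20 in Smad4KO, against 2.34 to 3.09 TPM in WT, and their part in the Entpd1 values was not tested.

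Receptors and partners of the ligands were mostly low. Of 13 genes 12 had a value here and 7 were tested, and 1 rose and 2 fell in EgfrKO, 3 rose and 1 fell in Klf5KO, and 0 rose and 4 fell in Smad4KO. Pdcd1, the receptor of Cd274, averaged 3.28 ± 0.76 TPM in EgfrKO and 4.75 ± 2.43 in Klf5KO, against 0.665 ± 0.30 TPM in WT, and both were called (adjusted p = 0.0023 and 0.00021), while Smad4KO had 0.838 ± 0.21 TPM. Pdcd1 was below 1 TPM in every WT library, so that it was tested only through the knockouts, as were Ido2, Tdo2 and Icosl, and with no filter its adjusted p was 0.0054 in EgfrKO and 0.00063 in Klf5KO. The 9 T and NK cell markers, led by Cd3d and Nkg7, summed to 10.1 to 11.8 TPM in EgfrKO, 10.9 to 18.1 in Klf5KO and 8.50 to 10.7 in Smad4KO, against 2.36 to 5.27 TPM in WT. Markers of this list listed at 0 in at least 1 library were Cd3e, Cd3g, Nkg7, Klrb1c and Ncr1. The part of such cells in the ligand values was not tested.

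Havcr2, the receptor of Lgals9, fell in Smad4KO to 0.616 ± 0.12 TPM, against 2.93 ± 0.95 TPM in WT (adjusted p = 8.8e-05). Sirpa, the receptor of Cd47 on myeloid cells, rose in Klf5KO by 0.88 (adjusted p = 0.016), a call lost after scaling (0.14), with the leukocyte list as a covariate (0.71) and without WT replicate 1 (0.056), WT replicate 3 (0.064) or Klf5KO replicate 3 (0.053). Thbs1, a secreted ligand of Cd47, averaged 18.9 ± 0.17 TPM in EgfrKO and 21.0 ± 1.93 in Smad4KO but 112 ± 13.8 in Klf5KO, against 57.4 ± 6.08 TPM in WT. Rgmb, which binds Pdcd1lg2, fell in EgfrKO by 0.60 and in Smad4KO by 0.67 (adjusted p = 0.00074 and 0.0002).

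Other checkpoint and costimulatory ligands did not move as a block. Of 21 genes 14 were tested, and 3 rose and 3 fell in EgfrKO, 8 and 4 in Klf5KO, and 4 and 3 in Smad4KO, with medians of 0.14, 0.33 and -0.10, and after scaling 2 and 4, 2 and 4, and 3 and 4. Vtcn1 (B7-H4) was 8.81 ± 0.26 TPM in EgfrKO, 10.5 ± 0.93 in Klf5KO and 15.9 ± 0.97 in Smad4KO, against 5.57 ± 0.97 TPM in WT. Icosl is the ligand of the T cell costimulator Icos. It averaged 1.78 ± 0.14 TPM in EgfrKO, 1.32 ± 0.22 in Klf5KO and 3.50 ± 0.31 in Smad4KO, against 0.847 ± 0.080 TPM in WT. Each was called higher, though the Klf5KO call (adjusted p = 0.026) was lost after scaling (0.28). Nectin1, another nectin, was 0.285 and 0.207 times WT in EgfrKO and Klf5KO and 2.16 times WT in Smad4KO, each past the threshold (adjusted p = 0.0002, 2.8e-05 and 0.00038). The galectin Lgals3 was 0.617, 0.378 and 0.608 times WT in EgfrKO, Klf5KO and Smad4KO, opposite to Lgals9, and Lgals1 was 0.627 times WT in Smad4KO (adjusted p = 8.9e-07). Cd24a, a surface protein that engages Siglec receptors, rose in Klf5KO by 0.47 (adjusted p = 1.2e-05), or 0.11 after scaling (0.072).

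Genes that act on the Cd274 or Cd47 protein were examined as a list of 7. Of these, 2 rose in EgfrKO, 5 in Klf5KO and 3 in Smad4KO, and 0 fell, while after scaling 1 rose and 1 fell, 3 rose and 3 fell, and 2 rose and 1 fell. Before scaling 31.3%, 55.2% and 32.2% of all genes were called higher. Cmtm4, which stabilises Cd274, rose by 0.75 in Klf5KO and 0.47 in Smad4KO (adjusted p = 1.7e-05 and 0.00076). Qpctl, which modifies the end of Cd47 that Sirpa binds, rose by 0.40 in EgfrKO and 0.67 in Klf5KO (0.008 and 0.00015). Spop, part of a ubiquitin ligase for Cd274, rose in Klf5KO by 0.61 (adjusted p = 3e-06). Hip1r, which sends Cd274 to the lysosome, rose by 0.34, 0.53 and 0.57 in EgfrKO, Klf5KO and Smad4KO (adjusted p = 0.013, 0.00041 and 0.00038). The EgfrKO call was lost after scaling (0.062), without WT replicate 3 (0.058) or without EgfrKO replicate 1 (0.051). Scaling also removed the Klf5KO call of Hip1r (0.056). Cops5 rose in Smad4KO by 0.21 (0.005), and by 0.10 after scaling (0.081). With the fibroblast covariate the Klf5KO calls of Pdcd1 (0.80, adjusted p = 0.40), Thbs1 (0.68, 0.082), Ido2 (1.43, 0.054), Kyat3 (0.62, 0.34), Entpd1 (1.56, 0.087), Entpd2 (0.38, 0.29), Enpp1 (0.51, 0.13), Sirpa (1.37, 0.21), Cmtm4 (0.51, 0.11) and Qpctl (0.26, 0.43) were lost.

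Other genes with a profile like that of a ligand were sought among 9892 named genes with a mean of at least 5 TPM. Distance was the root mean square difference of mean-centred log2(TPM + 1) over the 12 libraries. It was taken for the 6 members whose genotype means spanned at least 1 log2 unit. Nearest to Cd274 were Rnf135 (0.10), Parp11 (0.12) and Hhex (0.13), and nearest to Ido1 were Akr1c14 (0.17), Tap2 (0.17) and Irgm1 (0.21). Tnfrsf14 was nearest to the MHC class I genes H2-T9 (0.16) and H2-Q4 (0.17), whose reads may be shared within their family, and to Oasl2 (0.17). Lgals9 was nearest to Soat2, Mettl7a1 and Psme2 (0.10 each), and Nectin2 to Ucp2 (0.09), Sorbs3 (0.12) and Phldb3 (0.14). Pdcd1lg2 had the most distant neighbours, Pla2g16 (0.30), Tmem106a (0.31) and Fcgr4 (0.33), the last an Fc receptor of myeloid cells. It was itself under 5 TPM in every library, so genes at its own level were not among the candidates.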

How the data were processed

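Values are TPM as deposited by the authors, in 1 table of gene symbols with 12 library columns. Per the submitters' processing notes Salmon and mm10 were used, while the sources used here give no version, annotation or strand setting. Depth is unknown, so no counting interval is given. In GENCODE M21 an opposite-strand gene overlaps exons of Cd274, Cd276 and Nectin2, and without a stated strand setting its reads cannot be told apart from theirs.

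Columns were matched to samples by name. Log2(TPM + 1) was fitted for the 13662 genes that 3 or more libraries had at 1 TPM or above, with limma 3.58.1 in R 4.3.3, as 1 model of 4 genotype means with a trend in the spread. The 6 contrasts were tested two-sided, with Benjamini-Hochberg adjustment over all genes of a contrast and a threshold of 0.05. The fit was tested on simulated data. Members and lists were chosen with earlier results of these data known. Other genes named are up to 3 of each list with the smallest adjusted p per contrast with WT, the 2 most abundant markers of a cell type, and the 3 nearest profiles. The values of 1 gene of the interferon gamma list, which is in that list's counts, and 1 other motif searched are not reported here. Markers of B cells and neutrophils, which are in no result above, summed to at most 1.58 and 25.4 TPM, led by Cd79b and Cd79a, and Retnlg and S100a8. Alternatives covered the pseudocount (0.1), the filter (none, or TPM of at least 5), scaling, the libraries in the fit, the spread, a replicate block, 3 marker lists as covariates, and leaving out each library. Coordinates are from RefSeq's GRCm38.p6, in which 23852 symbols matched.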

Additional observations from a re-analysis of the deposited data

How the results depend on the processing

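Depth is unknown, so counting error at low TPM could not be given, and it limits Pdcd1lg2 most. Of the fold changes of the 10 genes over 6 contrasts and 24 alternatives, 1330 kept direction and side of the threshold, 36 lost a call, 35 gained one and 33 changed sign. For the other named genes, 1239 kept both and 25 lost a call. The cause of the changes below was not tested.

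Median-of-ratios scaling gave 3 genes called lower in Smad4KO against WT (1 as reported), 3 called between EgfrKO and Klf5KO (5) and 2 between EgfrKO and Smad4KO (1). It turned Cd276 in EgfrKO against WT to -0.12, Tnfrsf14 and Nt5e in EgfrKO against Klf5KO to 0.0038 and 0.0086, and Ido1 and Pvr in Klf5KO against Smad4KO to -0.0017 and -0.11. Quantile normalization called 3 genes between EgfrKO and Smad4KO and turned the same Cd276 value to -0.048, that of Tnfrsf14 to 0.012 and that of Pvr to -0.089. A fit of only the groups compared called 2 between EgfrKO and Smad4KO.

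The leukocyte sums of EgfrKO and Klf5KO do not overlap those of WT, so that covariate and those labels cannot be told apart. With the leukocyte list as a covariate 1 gene was called lower in EgfrKO and 1 in Klf5KO (2 each as reported), and 2 in Smad4KO, as with the macrophage list. The leukocyte list turned Nt5e in Klf5KO against WT to 0.082, Pdcd1lg2, Cd47 and Nt5e in EgfrKO against Smad4KO to -0.55, 0.088 and 0.050, and Pdcd1lg2 and Nt5e in Klf5KO against Smad4KO to -0.45 and 0.30. The macrophage list turned Pdcd1lg2 and Cd47 in EgfrKO against Smad4KO to -0.39 and 0.054, and Pdcd1lg2 and Nt5e in Klf5KO against Smad4KO to -0.029 and 0.18.

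The fibroblast list, whose sums do not overlap between Klf5KO and WT, left 3 higher and 1 lower in Klf5KO against WT (7 and 2 as reported) and 3 between Klf5KO and Smad4KO (5). It turned Cd276 to -0.060 in EgfrKO and 0.051 in Smad4KO against WT, Tnfrsf14 to 0.82 in EgfrKO against Klf5KO, and Cd276, Ido1 and Tnfrsf14 to -0.11, -0.012 and -0.38 in EgfrKO against Smad4KO. In Klf5KO against Smad4KO it turned Cd47, Ido1 and Tnfrsf14 to -0.071, -0.82 and -1.20.

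Leaving out each library gave 1 to 2 genes called lower in Smad4KO against WT, 4 to 7 between EgfrKO and Klf5KO and 1 to 2 between EgfrKO and Smad4KO. Values that changed sign ranged from -0.060 to 0.66 for Pdcd1lg2, -0.071 to 0.0067 for Cd47 and -0.048 to 0.032 for Lgals9 in EgfrKO against Smad4KO, and from -0.080 to 0.11 for Nt5e in Klf5KO against Smad4KO.

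Among all genes, scaling called 2485 higher and 3023 lower in EgfrKO against WT (4277 and 1643 as reported) and 3397 and 3731 in Klf5KO (7536 and 1518). Quantile normalization gave 2510 and 2766 in EgfrKO and 3685 and 3151 in Klf5KO, and the fibroblast list 1048 and 368 in Klf5KO. Same-numbered libraries of different genotypes correlated at -0.15 to 0.12 over 18 pairs, with 1 pair over 0.1. Of the 12 libraries 3 correlated best with their own number, so no strong pairing by number was seen. Whether the design paired the libraries is not stated in the labels. With the replicate block 7 genes were called between EgfrKO and Klf5KO, 6 between Klf5KO and Smad4KO and 1 between EgfrKO and Smad4KO, and the counts against WT were 6 and 2, 7 and 2, and 7 and 1, as without it.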

Other observations

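Tigit, the inhibitory receptor of Nectin2 and Pvr on T and NK cells, was between 9.94 and 18.8 TPM in the 12 libraries. In all 12 it was above each of the 9 T and NK cell markers, the highest of which reached 5.72 TPM. Tigit was not called in any of the 3 comparisons with WT in TPM as deposited (limma, adjusted p = 0.12, 0.20 and 0.35 in EgfrKO, Klf5KO and Smad4KO). After scaling it was called lower in Klf5KO than in WT (log2 fold change -0.53, adjusted p = 0.0035). Tigit was higher in EgfrKO than in Klf5KO by 0.46 on the log2 scale (0.0098) and than in Smad4KO by 0.42 (0.027). The EgfrKO and Smad4KO groups overlapped, at 14.3 to 18.8 and 10.9 to 14.4 TPM. It was singled out after its values were seen, and the cells these transcripts came from were not tested.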
